A study of Mus musculus with 9 samples.

Results

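The genes examined were the replication-dependent histone genes, taken as the protein-coding genes whose symbol starts with Hist1h, Hist2h, Hist3h, or Hist4h in GENCODE mouse release M21 on mm10. Of 54119 genes, 67 met this definition, and 48 of them had at least 10 counts in at least 3 of the 9 libraries and were kept. The kept genes were 5 of 6 H1 genes, 11 of 18 H2A genes, 12 of 18 H2B genes, 9 of 12 H3 genes, and 11 of 13 H4 genes. By gene cluster they were 38 of 54 Hist1, 8 of 10 Hist2, 1 of 2 Hist3, and 1 of 1 Hist4 genes. Of the 19 genes that were not kept, 5 were at 0 in every library and 14 had some counts, with a mean of at most 0.304 CPM. Just inside the threshold, Hist1h2bh had 10 or more counts in 4 libraries and a mean of 0.414 CPM, and just outside it Hist1h2ah, Hist1h2bl, and Hist1h3a reached 10 counts in 2 libraries each, with means of 0.155 to 0.304 CPM.

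The libraries came from total RNA of primary microglia, the immune cells of the brain, shaken off mixed glial cultures of embryonic C57BL/6J mouse brain. Control siRNA, Chd8 siRNA, and Tsc2 siRNA had 3 libraries each, numbered 1 to 3, and RNA was taken 3 days after siRNA treatment. An siRNA is a small RNA duplex that brings down the mRNA matching its sequence. Chd8 encodes a chromatin remodelling helicase, and the Tsc2 product restrains the growth kinase mTORC1. The study asked how the transcriptome of microglia differs when either gene is lowered. The study's results text gives LPS, a bacterial activator of microglia, for 3 days in all 3 groups. The RNA-seq paragraph of its methods and the sample descriptions name none, so the LPS treatment is not settled here. The Chd8 level in control siRNA libraries 1, 2, and 3 was 118, 97.4, and 93.6 CPM, against 86.8, 44.5, and 38.3 CPM in the Chd8 siRNA libraries. Chd8 siRNA library 1 thus lay nearer to the controls than to Chd8 siRNA libraries 2 and 3. The Tsc2 level was 40.8, 39.9, and 38.9 CPM in the control siRNA libraries and 24.6, 30.6, and 36.5 CPM in the Tsc2 siRNA libraries, so Tsc2 siRNA library 3 lay close to the controls. CPM here means counts scaled to a common library size, with TMM factors. Library totals ranged from 16913448 to 33213801 counts, and the kept histone genes held 0.0124% to 0.0226% of them, 2995 to 6005 counts per library.

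Replication-dependent histone genes supply the histones that package newly made DNA, and their mRNAs are abundant in S phase and scarce in resting cells. The H3 and H4 proteins form the inner core of the nucleosome, H2A and H2B flank it as dimers, and H1 binds the linker DNA outside. Their mRNAs normally end in a stem-loop in place of a poly(A) tail, and a polyadenylated form can arise when transcription runs past the stem-loop. Replication-independent variants such as H3.3 are made from other genes throughout the cell cycle.

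The 3' stem-loop is shown because it defines this class of mRNA and because the transcript models differ in whether and where they hold it. The search took 16 bases that open with GG and close with CC, with 6 base pairs around a loop of 4 bases. The innermost pair had to be T-A and the loop of the form TNTN, where N is any base. On GENCODE M21 transcripts, 32 of 48 kept histone genes (66.7%) held such a stretch, against 20 of 21636 other protein-coding genes (0.0924%). Within the last 100 bases it was present in 14 kept histone genes and in 0 of the other genes. The stem-loops are capitalized below with the bases around them, written 5' to 3' on the transcript strand as DNA.
Hist1h4d (H4, chr13:23581598-23582735, plus strand): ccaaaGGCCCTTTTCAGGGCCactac
Hist1h1c (H1, chr13:23738808-23740367, plus strand): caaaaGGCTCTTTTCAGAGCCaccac
Hist2h2aa1 (H2A, chr3:96245497-96246082, plus strand): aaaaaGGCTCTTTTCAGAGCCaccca
Hist1h2bg (H2B, chr13:23571396-23572013, plus strand): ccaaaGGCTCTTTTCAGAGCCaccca
Hist1h3b (H3, chr13:23752267-23752886, plus strand): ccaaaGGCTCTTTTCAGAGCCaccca
Hist1h3e (H3, chr13:23561534-23562369, minus strand): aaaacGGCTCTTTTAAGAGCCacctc
The kept genes carried 7 variants of the stem-loop. The one printed for Hist1h1c was in 16 genes of the H1, H2A, H2B, and H3 classes, that of Hist1h3e in 5 H2B and H3 genes, and that of Hist1h4d in 6 genes, all of the H4 class. In 14 genes the transcript model ended 3 to 74 bases after the stem-loop (short models), in 18 it ran on for 108 to 4884 bases (extended models), and in 16 the model held no such stretch. A poly(A) signal (AATAAA or ATTAAA) lay in the last 40 bases of 1 short model, 7 extended models, and 2 models without a stem-loop. No count in the table tells a processed from a polyadenylated molecule of the same gene.

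RefSeq (GRCm38.p6) promoter windows, 250 bases before to 50 after the start, were matched to 44 of the 48 kept genes. CCAAT on either strand was in 37 of the 44 (84.1%), against 37.9% of 27025 promoters, TATAAA in 24 (54.5%, against 14.2%), and the octamer ATTTGCAT in 8 (18.2%, against 1.75%). The octamer was found in 4 H2A and 4 H2B promoters and in none of the 23 H1, H3, and H4 windows. CCAAT was in all 34 H1, H2A, H2B, and H3 windows and in 3 of 10 H4 windows. In the Hist1 and Hist2 clusters, 12 pairs of an H2A and an H2B gene start 176 to 306 bases apart on opposite strands, and both genes of 5 pairs were kept. A pair of windows is shown with all 3 motifs in capitals, either strand: that of Hist1h2ac, because it spans the 251 bases up to the start of Hist1h2bc, the gene that came closest to a call below, and that of Hist1h4d, the gene with the highest mean CPM.
Hist1h2ac (chr13:23683910-23684209, minus strand): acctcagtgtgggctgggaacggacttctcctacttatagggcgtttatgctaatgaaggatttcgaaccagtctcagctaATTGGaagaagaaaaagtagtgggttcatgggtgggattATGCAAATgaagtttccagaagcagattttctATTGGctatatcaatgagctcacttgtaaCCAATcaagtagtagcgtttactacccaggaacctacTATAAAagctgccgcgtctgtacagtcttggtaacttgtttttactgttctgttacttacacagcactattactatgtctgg
Hist1h4d (chr13:23581318-23581617, plus strand): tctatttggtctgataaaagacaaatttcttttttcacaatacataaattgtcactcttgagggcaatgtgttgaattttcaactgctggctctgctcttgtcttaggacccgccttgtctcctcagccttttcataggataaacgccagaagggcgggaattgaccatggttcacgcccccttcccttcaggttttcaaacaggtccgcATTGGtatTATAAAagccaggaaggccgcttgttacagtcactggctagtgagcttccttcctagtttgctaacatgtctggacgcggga
The Hist1h2ac window held 3 CCAAT boxes, 1 octamer, and 1 TATAAA, and the Hist1h4d window held 1 CCAAT box and 1 TATAAA. A match is only a match of letters.

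Histone genes are near copies of each other, which limits what single-gene counts mean. In 27 of the 48 kept genes, fewer than 50% of the 31-base words of the transcript were unique to the gene, and in Hist1h2bq 0% were, since its transcript is identical to one of Hist1h2br. Hist2h2aa1 (10.3% unique) took the counts of a near-identical pair in which Hist2h2aa2 was listed at 0. The quantifier may have divided reads among such genes differently from library to library. Levels of Hist1h4d (85.3% unique), Hist1h1c (88.6%), and Hist1h1d (96.5%) rest mainly on words of their own.

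The histone genes were expressed at low levels, and 8 genes held 63.2% of their counts. Mean levels over the 9 libraries ran from 0.414 to 24.6 CPM with a median of 1.54 CPM, and 8 genes reached 5 CPM, 26 lay between 1 and 5 CPM, and 14 lay under 1 CPM. Scaled to transcript length, Hist2h2aa1 was highest at 40.2 CPM per kb, followed by Hist1h4d at 21.6, Hist1h4n at 14.4, and Hist1h2bc at 9.59 CPM per kb. Summed per kb, the kept genes came to 151 to 288 CPM per kb in a library. The 11 replication-independent variant genes came to 527 to 630 CPM per kb, which was 1.86 to 4.17 times as much in the same library, and H3f3b, a gene for H3.3, alone had a mean of 333 CPM per kb.

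**Figure D1:**
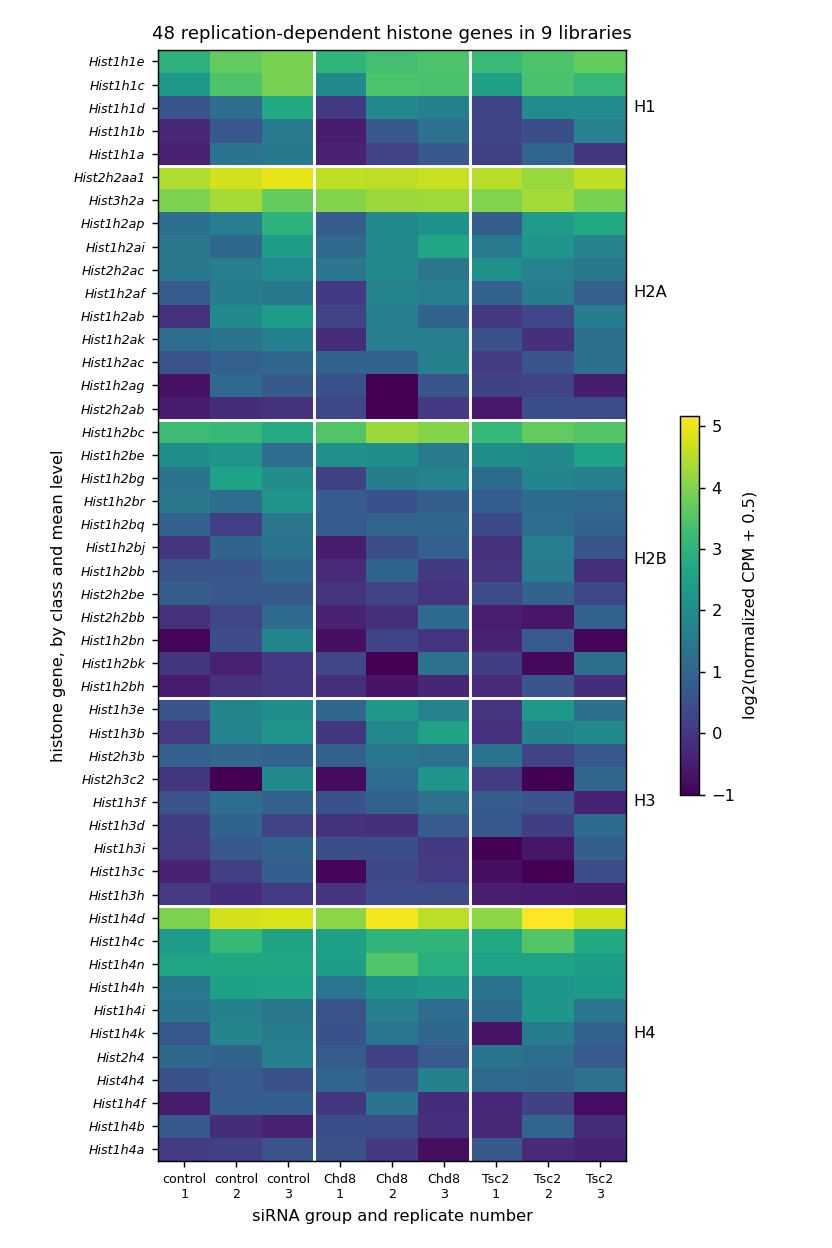
Colour gives log2(normalized CPM + 0.5) of the 48 kept histone genes (rows, by class and mean level) in the 9 libraries (columns, by siRNA group and replicate number). Hist2h2aa1, Hist3h2a, and Hist1h4d are at 12.5 CPM or more in every library, and many rows are darkest in the column numbered 1 of each group.

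Among the H1 genes, which encode linker histones, Hist1h1e and Hist1h1c were the main sources. The Hist1h1e level in libraries 1, 2, and 3 was 7.35, 12.4, and 14.8 CPM with control siRNA, 7.64, 9.50, and 10.2 CPM with Chd8 siRNA, and 8.49, 10.1, and 12.6 CPM with Tsc2 siRNA. The Hist1h1c level was 4.56, 10.6, and 14.4 CPM with control siRNA, 3.38, 10.1, and 10.1 CPM with Chd8 siRNA, and 5.21, 10.03, and 8.14 CPM with Tsc2 siRNA. In both genes the library numbered 1 was the lowest of each group, while the groups overlapped. Hist1h1d and Hist1h1b followed at means of 2.60 and 1.29 CPM. Hist1h1e (chr13:23620629-23622558) overlaps, on the same minus strand, the long span annotated to Hist1h2be (chr13:23583670-23621124), so the assignment of reads between the pair is uncertain.

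Of the H2A genes, Hist2h2aa1 and Hist3h2a held the most counts. Hist2h2aa1 was at 21.04, 26.5, and 30.7 CPM in the control siRNA libraries, 23.3, 23.1, and 24.4 CPM in the Chd8 siRNA libraries, and 22.1, 17.9, and 23.2 CPM in the Tsc2 siRNA libraries. Hist3h2a, on chromosome 11 away from the large clusters, was at 15.0, 19.8, and 12.5 CPM with control siRNA, 15.8, 18.5, and 19.1 CPM with Chd8 siRNA, and 15.4, 19.5, and 14.6 CPM with Tsc2 siRNA. Unlike Hist1h1e and Hist1h1c, neither was lowest in the library numbered 1 of every group. Hist1h2ap and Hist1h2ai had means of 3.63 and 3.20 CPM, and the other 7 kept H2A genes lay between 0.468 and 2.79 CPM.

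The leading H2B gene was Hist1h2bc, at 8.94, 8.25, and 6.44 CPM in the control siRNA libraries, 10.8, 18.5, and 15.6 CPM in the Chd8 siRNA libraries, and 8.07, 12.4, and 10.9 CPM in the Tsc2 siRNA libraries. All 3 Chd8 siRNA libraries were above all 3 control siRNA libraries, and the Tsc2 siRNA libraries overlapped both groups. Its partner across the shared promoter, Hist1h2ac, had a mean of 1.44 CPM, or 0.580 CPM per kb against 9.59 for Hist1h2bc. Hist1h2be, Hist1h2bg, and Hist1h2br had means of 3.54, 2.75, and 1.81 CPM.

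The H3 genes were the least counted class. Hist1h3e was at 0.980, 3.02, and 3.73 CPM with control siRNA, 1.61, 4.53, and 2.84 CPM with Chd8 siRNA, and 0.469, 4.51, and 1.90 CPM with Tsc2 siRNA. Hist1h3b was at 0.566, 2.96, and 4.16 CPM with control siRNA, 0.502, 3.19, and 5.35 CPM with Chd8 siRNA, and 0.427, 2.76, and 3.31 CPM with Tsc2 siRNA. In these 2 genes every library numbered 1 lay below every library numbered 2 or 3. Hist2h3b and Hist2h3c2 had means of 1.53 and 1.32 CPM.

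Of the H4 genes, whose product pairs with H3, Hist1h4d was at 14.9, 26.8, and 27.6 CPM in the control siRNA libraries, 16.5, 33.4, and 23.0 CPM in the Chd8 siRNA libraries, and 16.9, 35.4, and 26.7 CPM in the Tsc2 siRNA libraries. The libraries numbered 1 formed the low end in each group, and the groups overlapped. Hist1h4c, Hist1h4n, and Hist1h4h had means of 6.94, 6.20, and 3.85 CPM, and the other 7 kept H4 genes lay between 0.607 and 2.31 CPM.

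Summed over the 48 genes, the histone level was nearly the same in the 3 siRNA groups. In libraries 1, 2, and 3 it was 125, 189, and 214 CPM with control siRNA, 123, 199, and 193 CPM with Chd8 siRNA, and 128, 191, and 176 CPM with Tsc2 siRNA. The means were 176 ± 46.2, 172 ± 42.0, and 165 ± 33.1 CPM (SD, n = 3 each), so the groups overlapped and their means differed by less than their SDs. As the mean difference of log2(CPM + 0.5), the sum differed by -0.03 between Chd8 and control siRNA and by -0.08 between Tsc2 and control siRNA. In bulk RNA, fewer cells that make histone mRNA and less histone mRNA per cell cannot be told apart.

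**Figure D2:**
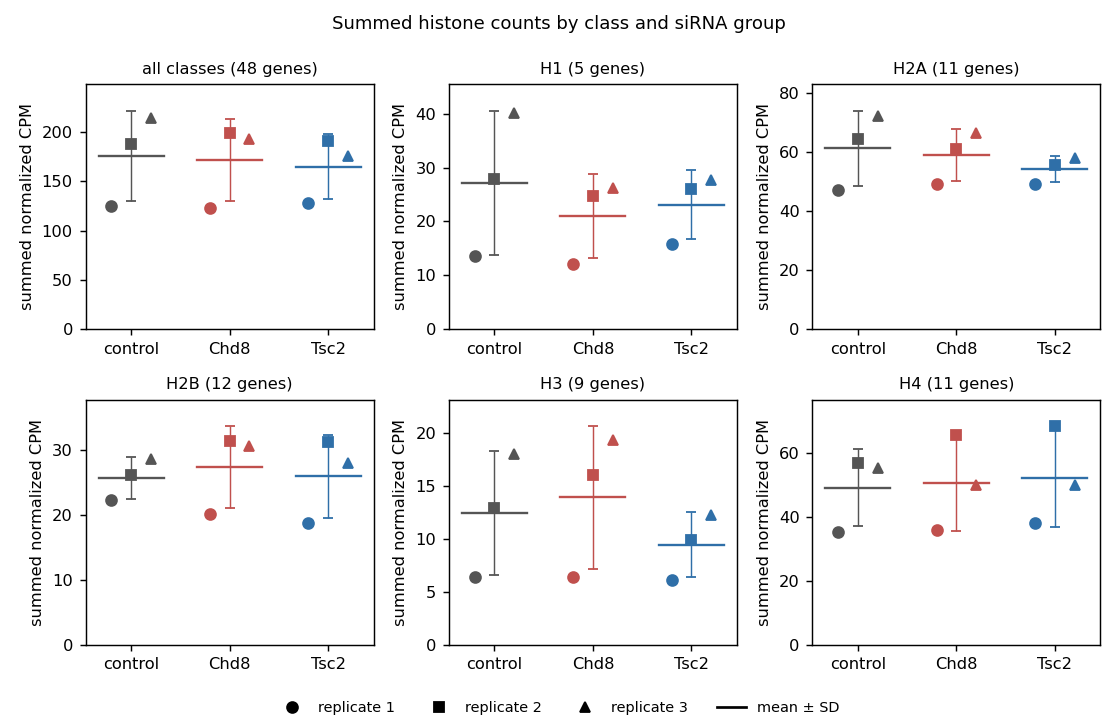
Points give summed normalized CPM of the kept genes of each class in each library, by siRNA group (x axis) and replicate number (marker), with the mean and SD of 3 libraries as lines. The circle, replicate 1, is the lowest point of every group in every panel, and the 3 groups overlap in every panel.

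By class, the same log2 difference between Chd8 and control siRNA was -0.31 for H1, -0.05 for H2A, 0.07 for H2B, 0.13 for H3, and 0.03 for H4. Between Tsc2 and control siRNA it was -0.14 for H1, -0.16 for H2A, -0.01 for H2B, -0.32 for H3, and 0.07 for H4. The H1 sum was 27.2 ± 13.4 CPM with control siRNA, 20.99 ± 7.80 CPM with Chd8 siRNA, and 23.1 ± 6.41 CPM with Tsc2 siRNA. The H3 sum was 12.5 ± 5.86, 13.9 ± 6.75, and 9.44 ± 3.08 CPM in the same order (SD, n = 3). No class sum separated the groups. Between libraries of the same number, the H3 difference between Tsc2 and control siRNA was -0.05, -0.37, and -0.54 for numbers 1, 2, and 3, and the H1 difference between Chd8 and control siRNA was -0.16, -0.17, and -0.61. Between Chd8 and Tsc2 siRNA the sums differed by -0.17 for H1, 0.11 for H2A, 0.08 for H2B, 0.45 for H3, and -0.05 for H4. The H3 difference there was 0.05, 0.66, and 0.64 for numbers 1, 2, and 3, though the 2 groups overlapped in the sum. In Chd8 against control, Tsc2 against control, and Chd8 against Tsc2 siRNA, the edgeR fold change was above 0 in 0, 1, and 1 of 5 H1 genes, in 4, 5, and 8 of 11 H2A genes, in 4, 4, and 4 of 11 H2B genes, in 6, 1, and 8 of 9 H3 genes, and in 6, 5, and 4 of 11 H4 genes, beside 7781, 7739, and 8232 of all 16273 genes. These comparisons share libraries in pairs, and the counts have no test. The H2B value depended on Hist1h2bc, the most counted gene of the class. It also had the lowest p for a higher level with Chd8 siRNA, so leaving it out lowers the difference by construction, and the value without it is only a description. The other 11 H2B genes together were at 13.3, 17.9, and 22.3 CPM with control siRNA and at 9.38, 13.0, and 15.0 CPM with Chd8 siRNA, a log2 difference of -0.50, with overlap between the groups, and 3 of the 10 tested among them (Hist1h2bk, Hist1h2be, and Hist1h2bq) had fold changes above 0. That difference was -0.49, -0.45, and -0.56 between libraries numbered 1, 2, and 3. Over the H2B genes with at least 50% unique 31-base words, Hist1h2bc included, the difference between Chd8 and control siRNA was 0.49. Hist1h2bc was the most counted gene of this set, with a mean of 11.1 CPM, so the value rests largely on it. The other tested genes of the set, Hist1h2be, Hist1h2bb, and Hist2h2be, had log2 fold changes of 0.05, -0.68, and -1.15.

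Gene by gene, no histone gene was called between siRNA groups (edgeR, quasi-likelihood test, FDR under 0.05 with a change of 1.5-fold or more). Of the 48 kept genes 47 passed the expression filter, all but Hist1h2bh. In Chd8 against control siRNA the test called 0 of 47 (0.0% of all 16273 genes tested), and the unadjusted p was under 0.05 in 3 (3.82% of all genes). In Tsc2 against control siRNA it called 0 of 47 (0.0% of all genes), and the unadjusted p was under 0.05 in 0 (2.61%). In Chd8 against Tsc2 siRNA it called 0 of 47 (0.0%), and the unadjusted p was under 0.05 in 1 (3.10%). DESeq2 also called 0 of 47 in each comparison, against 0.0553%, 0.0369%, and 0.0307% of all genes in the same order, and limma-voom called 0 of 47 and 0.0% of all genes in each. With the replicate number as a block, 0 of 47 were called in each comparison, while 0.535%, 0.387%, and 0.221% of all genes were called.

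**Figure D3:**
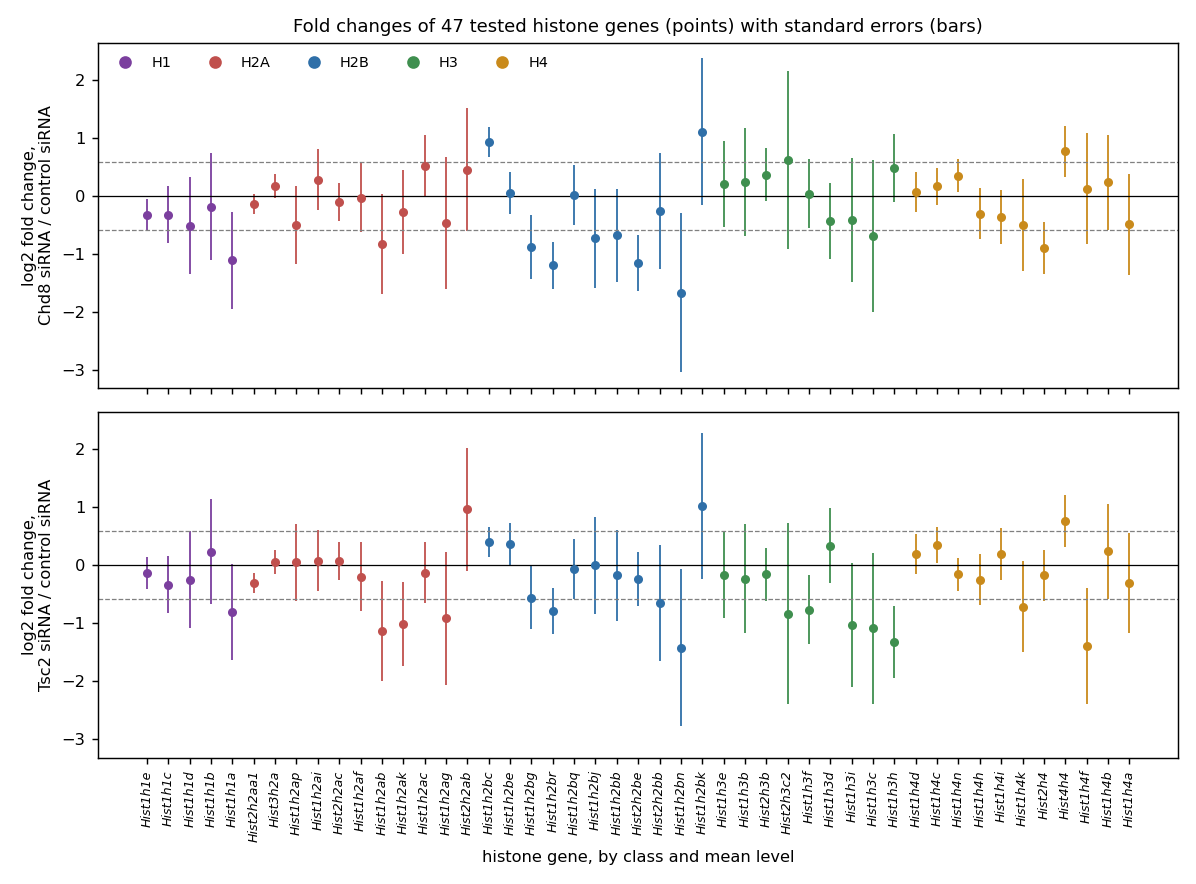
Points give the edgeR log2 fold change of each of the 47 tested histone genes, coloured by class, for Chd8 siRNA (upper panel) and Tsc2 siRNA (lower panel) over control siRNA, with bars for the standard error. Dashed lines mark a 1.5-fold change, and bars are short for well-counted genes such as Hist2h2aa1 and Hist3h2a and long for thinly counted ones such as Hist1h2bn.

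The fold changes lay on both sides of 0. For Chd8 siRNA 20 of 47 were above 0 and 27 below, with a median log2 fold change of -0.19 against -0.02 for all genes tested, and for Tsc2 siRNA 16 were above and 31 below, with a median of -0.17 against -0.02. Both comparisons share the control siRNA libraries. The median standard error was 0.60 and 0.62 for the histone genes, against 0.37 for all genes, so 2-fold changes of a typical histone gene were within about 2 standard errors. The 8 genes with at least 5 CPM had standard errors of 0.17 to 0.49, and their log2 fold changes lay between -0.33 and 0.92 for Chd8 siRNA and between -0.34 and 0.41 for Tsc2 siRNA.

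Hist1h2bc had the lowest p in Chd8 against control siRNA. Its log2 fold change was 0.92 ± 0.26 (SE), with an unadjusted p of 0.00499 and an adjusted p of 1.00, and with the replicate block 0.88 ± 0.20 with an adjusted p of 0.0566 (edgeR). The exact two-sided permutation test gave p = 0.1, the smallest that 3 libraries against 3 allow. It was higher with Chd8 siRNA in 3 of 3 pairs of libraries with the same number. With the replicate block and without control siRNA library 1 it was called (log2 fold change 1.20 ± 0.20, adjusted p = 0.0138, edgeR), whereas without any other control or Chd8 siRNA library it was not. The annotated gene spans chr13:23684199-23692908 on the plus strand, and its transcript model of 1156 bases held no stem-loop. Of the 31-base words of that model 66.3% were unique to the gene, and the rest were shared among 493 other genes.

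**Figure D4:**
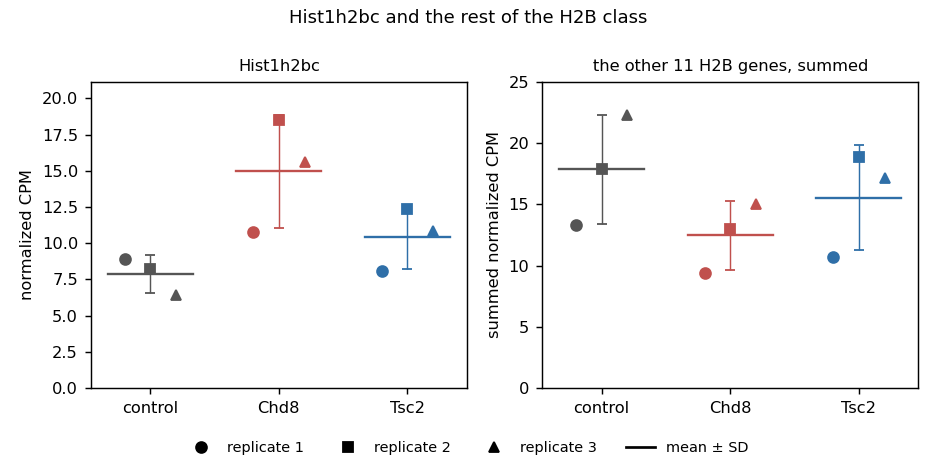
Normalized CPM of Hist1h2bc (left) and the summed normalized CPM of the other 11 kept H2B genes (right) in each library, by siRNA group (x axis) and replicate number (marker), with mean and SD of 3 libraries. Hist1h2bc lies at 10.8 to 18.5 CPM in the Chd8 siRNA libraries and at 6.44 to 8.94 CPM in the controls.

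The next lowest p-values in this comparison belonged to 2 more H2B genes. Hist1h2br was at 2.23, 1.85, and 4.03 CPM with control siRNA and 1.24, 0.957, and 1.32 CPM with Chd8 siRNA, with a log2 fold change of -1.20 ± 0.40. Its transcript shares nearly all of its words with other genes (0.163% unique), so its level depends on how reads were divided. Hist2h2be was at 1.32, 1.11, and 1.16 CPM with control siRNA and 0.469, 0.702, and 0.452 CPM with Chd8 siRNA, with a log2 fold change of -1.15 ± 0.48, and 97.2% of its words were unique. Neither passed the test (adjusted p of 1.00 for both, edgeR), and with the block the adjusted p-values were 0.229 and 0.411. In all, 1 histone gene (Hist1h2bc) had all Chd8 siRNA libraries above all controls, against 4.17% of all genes, and 3 (Hist1h2br, Hist2h2be, and Hist2h4) had all of them below, against 4.92%.

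In Tsc2 against control siRNA the lowest p belonged to Hist1h3h, at 0.566, 0.369, and 0.558 CPM with control siRNA and 0.213, 0.201, and 0.176 CPM with Tsc2 siRNA, with a log2 fold change of -1.33 ± 0.62 and an unadjusted p of 0.0573. The groups did not overlap, but these levels lie near the smallest number of counts taken as detected, 3 counts or 0.0903 to 0.177 CPM, and 5.77% of its 31-base words were unique to the gene. Hist1h2br had a log2 fold change of -0.80 ± 0.40, and Hist2h2aa1 one of -0.31 ± 0.17. Of the 47 genes, 1 (Hist4h4) had all Tsc2 siRNA libraries above all controls, against 3.87% of all genes, and 3 (Hist1h2br, Hist1h3h, and Hist1h4n) had all of them below, against 4.23%. In Chd8 against Tsc2 siRNA the lowest p belonged again to Hist1h3h, at 0.469, 0.829, and 0.823 CPM with Chd8 siRNA, with a log2 fold change of 1.82 ± 0.62 and an unadjusted p of 0.0151. Hist1h2bc and Hist2h2be followed with 0.52 ± 0.25 and -0.92 ± 0.48. The adjusted p was 1.00 for each gene of these 2 comparisons (edgeR). Groups without overlap were 1 higher gene, Hist1h3h, against 4.02% of all genes, and 1 lower gene, Hist2h2be, against 4.42%.

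The summed histone level differed between replicate numbers. In the 3 libraries numbered 1 the 48 genes summed to 123 to 128 CPM, in those numbered 2 to 189 to 199 CPM, and in those numbered 3 to 176 to 214 CPM. The means were 125 ± 2.27, 193 ± 5.58, and 194 ± 19.4 CPM (SD, n = 3), so the libraries numbered 2 and 3 had 1.54 and 1.55 times the level of those numbered 1, with no overlap. With the siRNA in the model, 16 of 47 histone genes (34.0%) differed between replicate numbers at an FDR of 0.05 (edgeR F test), against 25.0% of all 16273 genes. Without the first control siRNA library it was 10 of 48 (20.8%), against 18.2% of all genes. The histone share was thus not far above that of all genes, and the difference between the shares was not tested. In 13 of the 47 every library numbered 1 lay below every other library, against 9.21% of all genes, and in 0 it lay above, against 9.64%. The mean was lowest at number 1 in 37 of 47 histone genes and in 38.4% of all genes.

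Named by their p-values, Hist1h3b, Hist1h4d, and Hist1h1c led this comparison. Hist1h3b had means of 0.498 ± 0.0695, 2.97 ± 0.216, and 4.27 ± 1.02 CPM in the libraries numbered 1, 2, and 3 (SD, n = 3), with an adjusted p of 3.6e-05 (edgeR). Hist1h4d had 16.1 ± 1.02, 31.9 ± 4.48, and 25.8 ± 2.47 CPM with an adjusted p of 0.000172. Hist1h1c had 4.38 ± 0.925, 10.3 ± 0.298, and 10.9 ± 3.21 CPM with an adjusted p of 0.000752. By class the test called 4 of 5 H1, 2 of 11 H2A, 4 of 11 H2B, 2 of 9 H3, and 4 of 11 H4 genes, which were 6 of 14 short models, 7 of 17 extended models, and 3 of 16 models without a stem-loop. Against the 25.0% of all genes called, the shares of H2A (18.2%), of H3 (22.2%), and of models without a stem-loop (18.8%) were lower, and those of the other classes and forms were higher, each over few genes and with no test. In the libraries numbered 2 the summed levels of H1, H2A, H2B, H3, and H4 were 1.90, 1.25, 1.45, 2.06, and 1.75 times those in the libraries numbered 1. In the libraries numbered 3 they were 2.28, 1.35, 1.43, 2.63, and 1.43 times as high, so that H4 was close to H1 at number 2 and to H2B at number 3. The Hist1 cluster sum was 1.81 and 1.77 times as high at numbers 2 and 3 as at number 1, and the Hist2 sum 1.02 and 1.26 times. Hist2h2aa1 (adjusted p = 0.387) and Hist3h2a (adjusted p = 0.188), the 2 leading H2A genes, were not called (edgeR).

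**Figure D5:**
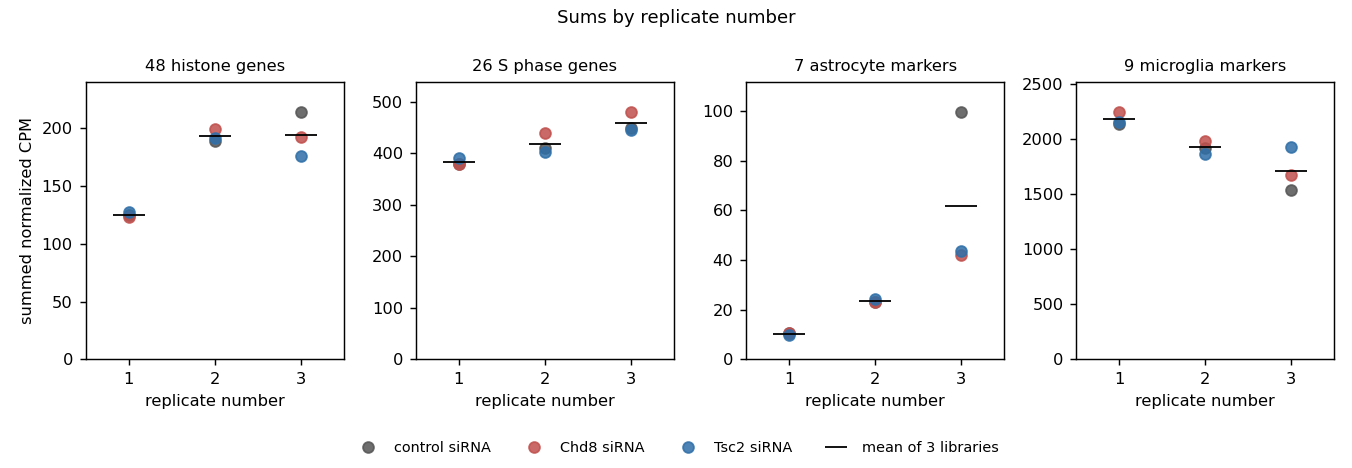
Each point is the summed normalized CPM of 1 library, by replicate number (x axis) and siRNA (colour), for the 48 kept histone genes, 26 S phase genes, 7 astrocyte markers, and 9 microglia markers; black bars are means of 3 libraries. Histone sums at number 1 (123 to 128 CPM) lie below the rest (176 to 214 CPM), and the marker sums also differ by number.

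The sums of several other gene groups also differed between replicate numbers, and the counts of called genes stand beside the 25.0% of all genes called in the same test. The 26 S phase and proliferation genes summed to 379 to 390, 403 to 440, and 444 to 481 CPM in the libraries numbered 1, 2, and 3, and 9 of 26 were called between numbers. The 7 astrocyte markers summed to 9.73 to 10.7, 23.0 to 24.5, and 42.0 to 99.8 CPM, with 5 of 7 called, and Aqp4, a water channel of astrocytes, was at 0 in all 3 libraries numbered 1. The 5 fibroblast markers summed to 4.27 to 7.66, 8.57 to 20.4, and 16.9 to 52.6 CPM, with 3 of 3 tested called. The 9 microglia markers summed to 2138 to 2251, 1870 to 1981, and 1535 to 1933 CPM, with 7 of 8 tested called. Among the microglia markers, Itgam was at 264 to 760 CPM, while P2ry12 was at 0.686 to 2.78 CPM and Tmem119 was at 0 in 3 libraries and at no more than 27 counts in any. The 6 oligodendrocyte lineage markers had mean sums of 24.6, 25.7, and 15.4 CPM at numbers 1, 2, and 3 (3 of 3 tested called). The 3 endothelial markers had 12.9, 9.01, and 7.51 CPM (1 of 2 called, with Cldn5 at no more than 3 counts in any library), and the 4 neuron markers 1.37, 1.33, and 1.15 CPM (0 of 2 called). The astrocyte and fibroblast sums were thus lowest at number 1, like the histone sum, while the microglia and endothelial sums were highest there. The part of these cell types and of proliferation in the histone difference was not tested. Between siRNA groups 0 of the cell type markers were called (edgeR, unadjusted p under 0.05 in 0 for Chd8 siRNA and in Aif1 and Aldoc for Tsc2 siRNA), and with the replicate block 1, the fibroblast collagen gene Col1a1, was called as lower with Chd8 siRNA. For Chd8 and Tsc2 siRNA against control, the median log2 fold changes were -1.24 and -0.80 over the 3 fibroblast markers tested, with 0 of 3 above 0 in both, and -0.19 and -0.65 over the astrocyte markers. They were 0.14 and 0.13 for microglia, 0.07 and -0.12 for oligodendrocyte lineage, 0.23 and 0.13 for endothelial, and -0.38 and -0.65 for neuron markers. The part of these differences in the H1 and H2B values of the Chd8 siRNA libraries was not tested. Control siRNA library 3, which had the highest histone sum, also had the highest astrocyte and fibroblast sums, at 99.8 and 52.6 CPM.

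The genes that make, process, and carry histones were compared between siRNA groups in the same fit. Of 21 genes for histone mRNA transcription, processing, and decay, 0 were called for either siRNA by edgeR, DESeq2, or limma-voom (unadjusted p under 0.05 in 1 for Chd8 siRNA and 0 for Tsc2 siRNA, edgeR), and the medians of their log2 fold changes were 0.06 for Chd8 siRNA and -0.01 for Tsc2 siRNA, against -0.02 for all genes in both. Upf1, a helicase of RNA decay, Srrt, a cap-associated protein, and Cpsf2, a subunit of the cleavage complex, were the most counted. Hinfp, an activator of H4 genes, was at 38.1, 34.4, and 29.4 CPM with control siRNA and 44.1, 43.9, and 38.9 CPM with Chd8 siRNA, without overlap but with an adjusted p of 1.00 (edgeR). Srrt was at 91.2, 99.3, and 101 CPM with control siRNA and 80.3, 88.0, and 76.3 CPM with Chd8 siRNA, also without overlap and not called.

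Of 11 replication-independent variant genes, 10 were tested and 0 were called for either siRNA by the 3 tools (unadjusted p under 0.05 in 2 and 0), with median log2 fold changes of 0.03 and 0.03. H3f3b was at 620, 550, and 617 CPM in the control siRNA libraries, 741, 663, and 753 CPM in the Chd8 siRNA libraries, and 627, 585, and 669 CPM in the Tsc2 siRNA libraries. The Chd8 siRNA libraries lay above the controls, with a log2 fold change of 0.27 and an adjusted p of 1.00, and with the block 0.27 and 0.0487, short of a 1.5-fold change (edgeR). H2afj, at 12.6, 20.0, and 15.1 CPM with control siRNA and 20.3, 25.5, and 22.0 CPM with Chd8 siRNA, had a log2 fold change of 0.51 (adjusted p = 1.00, with the block 0.0990). Between replicate numbers 0 of the 10 variants were called (edgeR, FDR of 0.05, unadjusted p under 0.05 in 2), beside 16 of 47 replication-dependent genes and 25.0% of all genes; the difference between the sets was not tested. Of 18 histone chaperone genes 0 were called for either siRNA by the 3 tools (unadjusted p under 0.05 in 1 and 0), with medians of -0.05 and -0.05. Nasp, a chaperone of H1 and H3-H4, was at 22.6, 20.3, and 29.3 CPM with control siRNA, 17.3, 11.4, and 19.0 CPM with Chd8 siRNA, and 16.9, 18.8, and 17.2 CPM with Tsc2 siRNA, below the controls in both and not called. Hat1, a histone acetyltransferase that acts on new H4, was at 61.7, 69.8, and 62.9 CPM with control siRNA, 73.0, 83.7, and 73.4 CPM with Chd8 siRNA, and 73.7, 93.8, and 71.0 CPM with Tsc2 siRNA, above the controls in both and not called. Daxx, a chaperone of H3.3 and the most counted of the list, was at 567, 596, and 560 CPM with control siRNA and 629, 675, and 597 CPM with Chd8 siRNA, just without overlap and not called. Of the 26 S phase genes 0 were called for either siRNA by the 3 tools (unadjusted p under 0.05 in 0 and 0), with medians of -0.004 and -0.10. Pcna, the sliding clamp of DNA replication, was at 140, 164, and 153 CPM with control siRNA, 149, 167, and 188 CPM with Chd8 siRNA, and 143, 157, and 166 CPM with Tsc2 siRNA, and the groups overlapped. Mki67, a marker of cycling cells, was at 34.5, 46.7, and 84.4 CPM with control siRNA, 30.1, 40.9, and 52.0 CPM with Chd8 siRNA, and 44.8, 41.7, and 53.6 CPM with Tsc2 siRNA, also with overlap. It was lower with Chd8 siRNA in 3 of 3 pairs of the same number, with a log2 fold change of -0.43 ± 0.31 (SE). Cdt1, a licensing factor of replication origins, was at 105, 105, and 98.7 CPM with control siRNA, 110, 126, and 114 CPM with Chd8 siRNA, and 107, 119, and 108 CPM with Tsc2 siRNA, above the controls in both. None of these 3 genes was called (adjusted p of 1.00 for each, edgeR).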

How the data were processed

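Primary microglia given control, Chd8, or Tsc2 siRNA were sequenced in 3 libraries each. The authors ran salmon 0.14.1 on mm10 and deposited estimated counts for each transcript through tximport, not normalized; the annotation release is not given in the sources used here. The kit is a stranded SMARTer kit in the labels and an Illumina total RNA preparation in the methods. Both the kit and the division of reads among near-identical copies could affect histone levels.

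Transcripts were summed to genes with GENCODE M21 (139852 of 140948 matched, and the 1096 others held 0.27% of counts) and rounded. Library totals were 16913448 to 33213801, and the floor of 3 counts covers counting error only. All genes were fitted with edgeR 4.0.16 in R 4.3.3 (filterByExpr, TMM, quasi-likelihood test, all 9 libraries, siRNA as factor), with Benjamini-Hochberg adjustment over the 16273 genes tested; calls needed an FDR of 0.05 and a 1.5-fold change. Replicate numbers were tested by an F test in the fit with siRNA and number. Single genes were also compared by an exact two-sided permutation test on log2(CPM + 0.5), and sums have no test. The fits were also run on simulated data, with changes larger than that of any histone gene here, so that run does not bear on smaller changes. Tables and plots used Python 3.11.15, pandas 2.3.3, and matplotlib 3.10.9.

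Same-numbered libraries deviated together from their group means (r over all genes 0.244 to 0.521 in 9 pairs, against -0.381 to 0.0363 in 18 other pairs). Deviations within a group cancel out, so the negative r of the other pairs follows in part from the calculation and is no separate support. Over the histone genes r was -0.0611 to 0.462 in the same-numbered pairs and -0.546 to 0.225 in the others, with overlap. The numbers, taken from the sample titles, were treated as pairing the libraries in the replicate block. Per the study's methods a biological replicate was 1 culture from its own mouse brain, but whether libraries of the same number came from the same brain is not stated. The p-values set a difference against the spread between these libraries. In the main fit, with siRNA as the only factor, that spread includes the differences between replicate numbers.

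The histone genes, lists, and tests were chosen with earlier results of these data known. Genes were named by rule: of each class the 4 with the highest mean CPM, of each comparison and of the replicate numbers the 3 with the lowest p, any called gene, and of each list the 3 most counted genes and, for each siRNA, the 2 with the lowest p, shown in part; other names were chosen after their values were seen. Alternatives were other normalizations and filters, DESeq2 1.42.0, limma-voom (limma 3.58.1), fits of 2 groups, the replicate block, no fold threshold, and each library left out.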

Additional observations from a re-analysis of the deposited data

How the results depend on the processing

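The count of 0 called histone genes held in 73 of 75 alternative settings over the 3 comparisons. The 2 others were fits of Chd8 against control siRNA with the replicate block, where 1 gene, Hist1h2bc, was called as higher: without the first control siRNA library (log2 fold change 1.20, adjusted p = 0.0138) and, an alternative chosen after the data were seen, without all 3 libraries numbered 1 (1.22, adjusted p = 0.0161). Over its 26 fits Hist1h2bc ranged from 0.70 to 1.22 with adjusted p-values of 0.0138 to 1.00 (edgeR, DESeq2, or limma-voom). With each library left out in turn, 0 to 1 genes were called in Chd8 against control siRNA. With all libraries the replicate block changed the call of no histone gene; of the cell type markers it added Col1a1, lower with Chd8 siRNA. The genes differing between replicate numbers were 16, and 10 to 15 with 1 library left out, the 10 (20.8%, against 18.2% of all genes) without the first control siRNA library. The summed H2B difference between Chd8 and control siRNA, 0.07 on the log2 scale, was -0.50 without Hist1h2bc and 0.49 over members with at least 50% unique 31-base words, a set chosen after the data were seen; for Tsc2 siRNA the latter was 0.30 against -0.01. Hist1h2bc was the most counted of the H2B members with at least 50% unique words, so the value over that set rests largely on it. The cause was not tested beyond the change of genes summed. Other sums moved by less than the spread between libraries. The fold changes of the 3 genes with the lowest p in each comparison kept their sign in these alternatives, whereas that of Hist1h1c in Chd8 against Tsc2 siRNA was 0.01 and, with the replicate block, -0.09. Of the 48 genes 40 had means under 5 CPM, and in Chd8 against control siRNA the median standard error of the histone genes was 0.60, against 0.37 for all genes; why no gene was called was not tested.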
